A study of Mus musculus with 18 samples.

Results

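The response of Ldha knockout (KO) macrophages to interleukin 4 (IL-4) was described from 6 of the 18 RNA-seq libraries of the series: 3 libraries of IL-4-treated KO cells set against 3 of untreated KO cells, across all 14288 genes that could be tested. The libraries were chosen by their labels alone, which give the genotype as LDHA KO and the treatment as IL-4 or none. Cells flushed from mouse femurs were grown for 7 days with 30 ng/mL of the growth factor M-CSF and 15% serum, which yields bone marrow-derived macrophages, and the polarized cells then received recombinant mouse IL-4 for 24 h. Each group holds 3 replicates. The same 3 codes label the untreated and the IL-4 libraries, and replicate numbers below are those of the labels. The codes were read as animals, so that each animal gave a library of both kinds. This reading rests on the shared codes. The remaining 12 libraries were KO cells given interferon-gamma and wild-type (WT) cells in all 3 conditions. The WT untreated and IL-4 values are shown only to check the genotype labels and to compare the KO response with that of WT. All 18 libraries entered the filter for genes tested and the shared estimate of the spread, and so the standard errors and adjusted p-values. Age, sex, strain, IL-4 dose and the means by which Ldha was deleted are given by no source used here, although the title of the series speaks of expression specific to macrophages. The untreated and the IL-4-treated cells compared share the LDHA KO label.

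IL-4 binds a receptor that contains the IL-4 receptor alpha chain and, in blood cells, the common gamma chain. Janus kinases on these chains phosphorylate the transcription factor STAT6, which enters the nucleus and binds paired TTC and GAA half-sites. In macrophages the resulting program is called alternative activation and is known for arginase, lectin receptors, chitinase-like proteins and chemokines that attract T cells, eosinophils and monocytes, and it is restrained by SOCS proteins and CISH that are themselves induced. Ldha encodes the A subunit of lactate dehydrogenase, the enzyme that converts pyruvate to lactate at the end of glycolysis.

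Ldha itself (chr7:46841475-46855627 on GRCm38, plus strand) checked the genotype labels. Its normalized count, which is the number of reads of a gene divided by the size factor of its library, was 2128, 2261 and 2591 in the untreated and 4105, 4218 and 4226 in the IL-4 libraries. The WT untreated libraries held 12204, 11939 and 10712 and the WT IL-4 libraries 22901, 23518 and 25145, so all 6 KO libraries lay below all 6 WT libraries, with residual Ldha reads in each. Within KO, Ldha was higher in every IL-4 library than in every untreated one (log2 change 0.85 ± 0.0761, adjusted p = 1.64e-07, limma, as for all adjusted p-values below unless another tool is named). Ldhb, the other subunit gene expressed here, overlapped between the groups (log2 change 0.25 ± 0.176, adjusted p = 0.325). A second gene separated the genotypes: Lyz2, the lysozyme gene used as a macrophage marker, was at 689, 873 and 790.4 in the untreated and 503, 518 and 426 in the IL-4 libraries (log2 change -0.70 ± 0.102, adjusted p = 4.3e-05), against 350107 to 700319 in the 6 WT libraries. The KO cells compared here therefore carried a low Lyz2 level in both groups, and the cause of that was not tested.

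The 6 KO libraries held 28.6 to 49.0 M reads on genes (M, mega), and the mitochondrial share of reads was 1.98% to 2.17% untreated and 1.63% to 1.79% with IL-4. All 16 macrophage markers listed were detected, with Csf1r, the M-CSF receptor, at 87423, 99468 and 102435 in the untreated and 80618, 88832 and 79819 in the IL-4 libraries and Cd68, a lysosomal macrophage protein, at 45628, 46937 and 47466 in the untreated and 54183, 51336 and 43467 in the IL-4 libraries. Of the other cell types, the 6 T, NK and B cell markers in the table summed to 142 to 229.5 untreated and 67.5 to 105 with IL-4, and the 13 stromal markers to 621 to 2059 and 688 to 1995. The 9 monocyte and neutrophil markers summed to 1735 to 2380 and 2753 to 3645, mostly the cytokine receptor gene Csf3r (log2 change 0.73 ± 0.133, adjusted p = 0.000382). The 5 eosinophil, mast cell and basophil markers summed to 151 to 242 and 239 to 339.6, and the 5 erythroid and megakaryocyte markers to 216 to 322 and 368 to 759.9. The haemoglobin genes and the neutrophil granule genes of the lists were either missing from the table or under the filter. The part of these cells in the results was not tested. In RNA from whole cultures, fewer cells of a type and less RNA per cell cannot be told apart.

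IL-4 changed the level of 4318 genes in KO macrophages at an adjusted p under 0.05, which is 30.2% of the genes tested. Of these, 2253 were higher (15.8%) and 2065 lower (14.5%), while the median log2 change over all genes was 0.00. A change of at least 2-fold was called for 1282 genes (8.97%), 613 higher (4.29%) and 669 lower (4.68%). The largest changes were mostly upward: 122 genes were called at least 8-fold higher and 29 at least 8-fold lower, and at 32-fold the counts were 39 and 3. In 6821 genes (47.7%) the libraries of the groups did not overlap. Among the 4318 called genes, 4243 had no overlap, so the lack of overlap noted below for called genes adds little to their calls. In the plot of change against level, the induced genes reached far higher than the reduced ones fell.

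**Figure D1:**
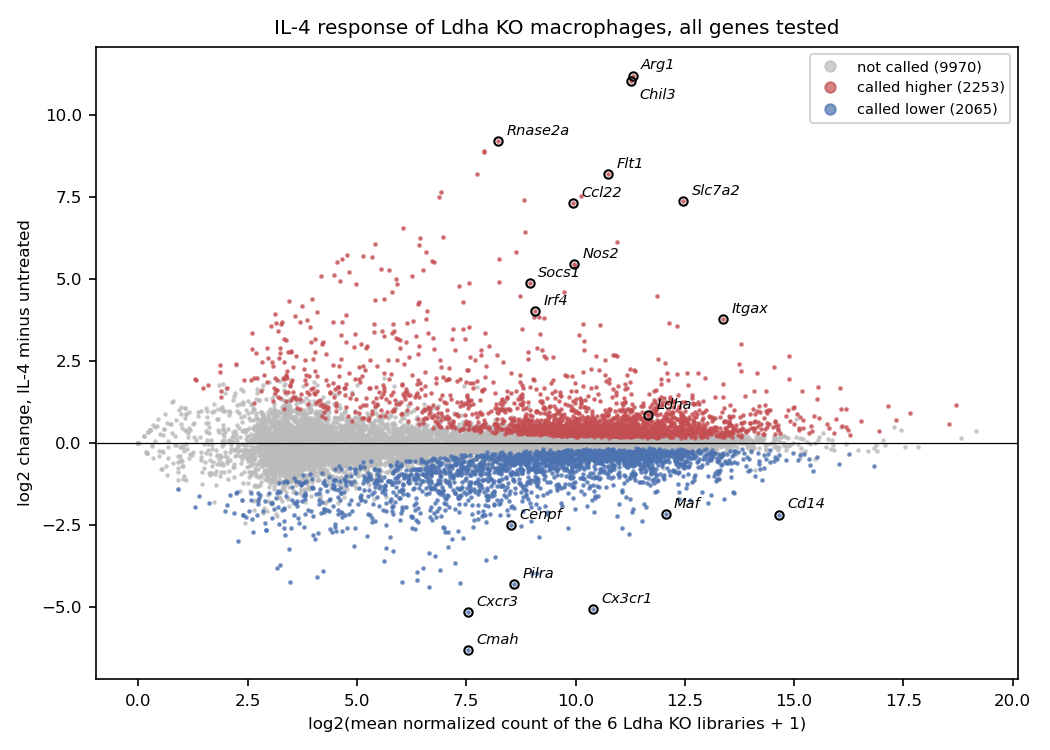
Each point is 1 of the 14288 genes tested; the x axis gives the log2 of the mean normalized count over the 6 Ldha KO libraries plus 1, and the y axis the log2 change, IL-4 minus untreated. Red points were called higher (2253), blue points lower (2065), grey points were not called, and the named genes are circled; Arg1 and Chil3 lie highest, at 11.20 and 11.05, and Cmah lowest, at -6.32.

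Arg1 (chr10:24915221-24927484, minus strand) encodes arginase, which splits arginine into ornithine and urea and is the defining enzyme of the alternatively activated mouse macrophage. Its normalized count was 0, 2.60 and 1.63 in the untreated and 5299, 3792 and 6152 in the IL-4 libraries. The untreated libraries held 0, 3 and 2 reads, and every IL-4 library was far above them (log2 change 11.20 ± 0.478, adjusted p = 2.35e-11). Chil3 (Ym1), a secreted chitinase-like protein, went from 0, 0.866 and 4.08 to 6242, 2316 and 6313 (log2 change 11.05 ± 0.641, adjusted p = 9.66e-10), with replicate 2 the lowest of the IL-4 libraries. Slc7a2, the arginine transporter that supplies arginase, was already present untreated, at 77.0, 65.8 and 58.0 in the untreated and 10758, 9972 and 12870.1 in the IL-4 libraries (log2 change 7.37 ± 0.319, adjusted p = 2.69e-11). The groups did not overlap in any of these genes, which was a condition for being named among the largest changes.

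Several induced genes had no read in any untreated library. Retnla (Fizz1), a secreted resistin-like protein, was at 0 in all 3 and at 512, 540 and 387 with IL-4. Taking 3 reads over the group as the most that a count of 0 allows, Retnla was at least 556-fold higher with IL-4. Rnase2a, a secreted ribonuclease of the eosinophil-associated family, reached 501, 744 and 550 (at least 693-fold), and Ocstamp, a membrane protein needed for fusion of osteoclasts and giant cells, 619, 378 and 444 (at least 557-fold). Chil4, the closest relative of Chil3, was also at 0 untreated and reached 40.3, 24.0 and 37.6 (at least 39.4-fold). Rbp4, the plasma carrier of retinol, had 2 reads untreated and 1563 with IL-4, a ratio per library size of 757 (exact 95% interval 209 to 6255, counting error only). Lad1, a basement membrane-associated protein, had 1 and 796 reads (ratio 771, interval 138 to 30488), and Il31ra, a receptor chain for interleukin 31, 2 and 490 (ratio 237, interval 65.3 to 1965). Chil3 and Chil4, and the ribonuclease genes, have near-identical copies, and the sources used here do not say how reads that match more than 1 copy were counted.

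**Figure D2:**
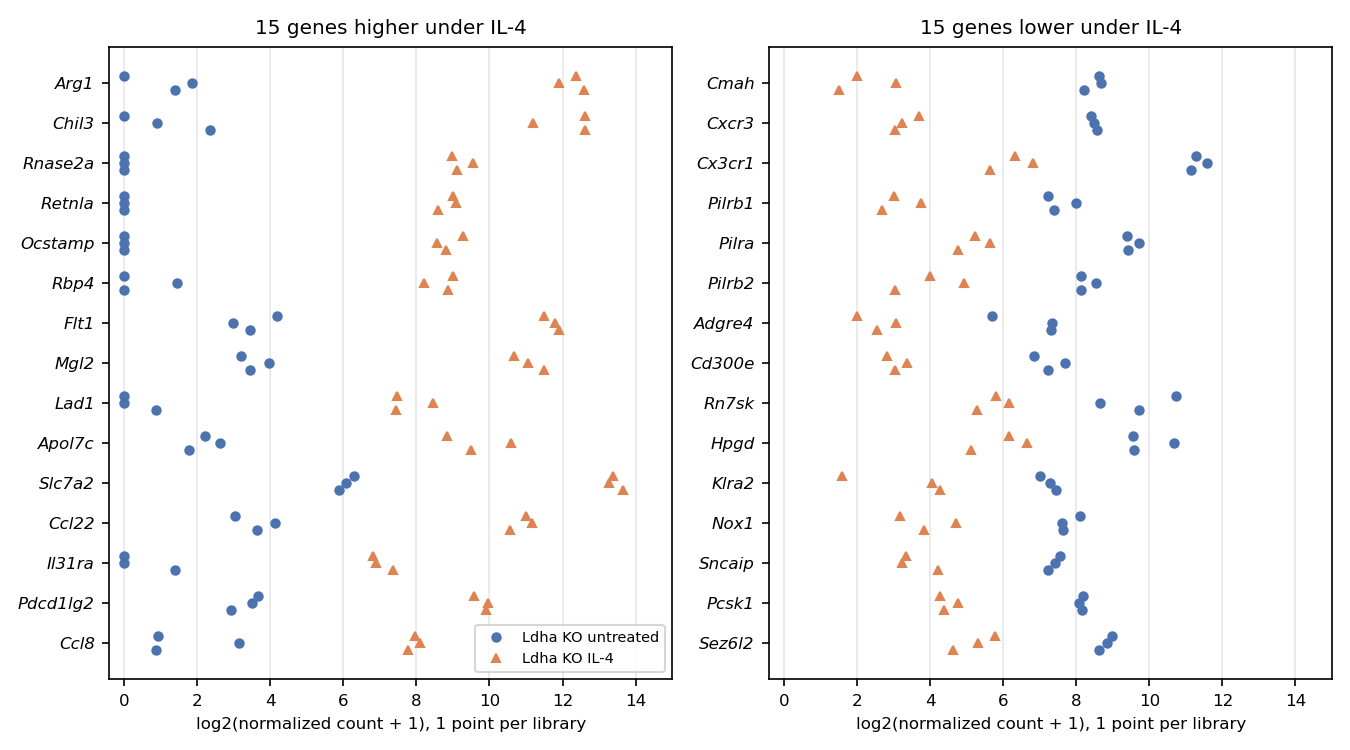
Log2(normalized count + 1) of 15 genes higher (left) and 15 lower (right) under IL-4, 1 point per library, circles for untreated and triangles for IL-4-treated Ldha KO macrophages. Only genes whose groups did not overlap could be shown. Rnase2a, Retnla and Ocstamp sit at 0 in all 3 untreated libraries.

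Flt1, a receptor for vascular endothelial growth factor, was at 17.2, 6.93 and 9.80 untreated and 2895, 3554 and 3839 with IL-4 (log2 change 8.20 ± 0.276, adjusted p = 1.43e-12). Mgl2, a galactose-binding lectin of the CD301 type, was at 8.15, 14.7 and 9.80 untreated and 1628, 2123 and 2873 with IL-4 (log2 change 7.54 ± 0.351, adjusted p = 5.78e-11). In both genes the lowest IL-4 library was far above the highest untreated one. Pdcd1lg2 (PD-L2), a ligand that restrains T cells through PD-1, was at 11.8, 10.4 and 6.53 untreated and 769, 988 and 951 with IL-4 (log2 change 6.45 ± 0.376, adjusted p = 1.03e-09), and an antisense gene model that overlaps it rose as well, from a mean of 18.6 to 150. The sources used here do not say whether reads were assigned by strand. Apol7c, a member of the apolipoprotein L family, was the most variable of the group between IL-4 libraries, at 3.62, 5.20 and 2.45 untreated and 459, 1525 and 714 with IL-4 (log2 change 7.43 ± 0.561, adjusted p = 2.04e-08).

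The promoters of these genes are shown because STAT6 is known to bind TTCNNNNGAA, the half-sites with a spacer of 4 bases. RefSeq promoters (250 bases before to 50 after the start, GRCm38.p6) could be matched by symbol to 10231 of the 14288 genes (71.6%). Of the 15 genes in the left panel of the plot of the largest changes, 4 held the letters on either strand, in capitals here: Retnla (chr16:48842359-48842658, plus strand) from position -145 to -136, Rbp4 (chr19:38125272-38125571, minus) from -120 to -111, Apol7c (chr15:77533266-77533565, minus) from -72 to -63 and Pdcd1lg2 (chr19:29410669-29410968, plus) from -82 to -73.
Retnla: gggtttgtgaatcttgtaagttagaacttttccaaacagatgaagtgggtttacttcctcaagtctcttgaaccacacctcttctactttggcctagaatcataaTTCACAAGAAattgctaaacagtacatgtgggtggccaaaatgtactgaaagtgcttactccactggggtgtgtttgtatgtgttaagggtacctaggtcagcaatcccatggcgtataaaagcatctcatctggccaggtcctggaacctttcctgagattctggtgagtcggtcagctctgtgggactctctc
Rbp4: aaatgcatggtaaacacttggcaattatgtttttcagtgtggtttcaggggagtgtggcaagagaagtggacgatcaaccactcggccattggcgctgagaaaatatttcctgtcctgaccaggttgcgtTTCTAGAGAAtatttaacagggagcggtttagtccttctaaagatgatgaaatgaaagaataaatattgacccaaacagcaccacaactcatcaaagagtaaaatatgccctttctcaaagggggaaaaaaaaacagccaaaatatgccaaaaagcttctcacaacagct
Apol7c: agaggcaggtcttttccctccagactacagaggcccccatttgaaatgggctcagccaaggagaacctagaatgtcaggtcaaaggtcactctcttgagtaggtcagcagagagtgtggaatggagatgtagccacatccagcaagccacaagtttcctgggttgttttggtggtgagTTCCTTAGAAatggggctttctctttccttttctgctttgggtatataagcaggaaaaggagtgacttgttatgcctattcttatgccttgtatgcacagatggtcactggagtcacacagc
Pdcd1lg2: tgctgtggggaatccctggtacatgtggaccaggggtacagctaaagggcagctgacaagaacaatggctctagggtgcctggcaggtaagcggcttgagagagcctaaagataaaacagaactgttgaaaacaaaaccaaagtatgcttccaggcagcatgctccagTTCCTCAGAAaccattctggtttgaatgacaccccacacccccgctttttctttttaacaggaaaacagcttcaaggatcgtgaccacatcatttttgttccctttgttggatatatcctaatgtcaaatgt
Each of the 4 matches had its own spacer between the half-sites. Among all promoters of genes tested, 5.56% held the letters (723 of 13010). Among the promoters of genes called at least 8-fold higher the share was 15.0% (15 of 100), at least 2-fold higher 7.64%, and at least 2-fold lower 6.71%. The related form with 1 more base between the half-sites, TTCCNNNNGAA, was in 3 of the 100 promoters and in 3.36% of all. Other motifs among the 17 searched were also in a larger share of the 100 promoters than of all, such as GAGGAA, the PU.1 core (39 of 100 against 27.1%), and TTTGAA (19 of 100 against 12.4%), and the motifs described were chosen after these shares were seen. A match describes letters, not a bound site, and most of the 8-fold induced promoters did not hold them in this window. Rbp4 has a second entry that does not hold the letters, and Arg1, Ocstamp and Slc7a2 have no entry in the promoter table.

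Cmah, which hydroxylates the sialic acid Neu5Ac, had the largest fall of the named genes and was at 391, 411 and 298 untreated and 3.02, 7.31 and 1.82 with IL-4 (log2 change -6.32 ± 0.439, adjusted p = 8.21e-09). Cx3cr1, the receptor for fractalkine, was at 2495, 3068 and 2243 untreated and 78.6, 112 and 49.2 with IL-4 (log2 change -5.07 ± 0.360, adjusted p = 1.08e-08), and Cxcr3, a chemokine receptor, at 339, 360.3 and 379 untreated and 12.1, 8.36 and 7.28 with IL-4 (log2 change -5.16 ± 0.784, adjusted p = 6.12e-05). In all of these the IL-4 libraries lay far below the untreated ones. Cx3cr1 overlaps several gene models, 1 of which, Wdr48 on the opposite strand, had means of 1454 untreated and 1375 with IL-4. The paired immunoglobulin-like receptor genes fell together: the inhibitory Pilra (675, 847 and 678 untreated and 36.3, 49.1 and 26.1 with IL-4; log2 change -4.30 ± 0.179, adjusted p = 1.78e-11) and the activating Pilrb1 and Pilrb2 (log2 change -4.38 and -4.26), whose near-identical sequences may share reads. Pilra overlaps Zcwpw1 on the opposite strand, which had means of 117 untreated and 69.8 with IL-4.

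Adgre4, an adhesion receptor, fell from 50.7, 162 and 158 to 3.02, 7.31 and 4.86 (log2 change -4.25 ± 0.741, adjusted p = 0.000248), and Cd300e, an activating receptor of monocytes, from 113, 206 and 150.2 to 6.05, 9.40 and 7.28 (log2 change -4.17 ± 0.393, adjusted p = 2.98e-07). Hpgd, the enzyme that inactivates prostaglandins, fell from 755, 1619.7 and 759 to 70.5, 99.2 and 34.0, with replicate 2 the highest of both groups (log2 change -3.95 ± 0.537, adjusted p = 1.96e-05). Nox1, a superoxide-generating oxidase that overlaps the more abundant Cstf2 on the opposite strand (-3.88), Pcsk1, a prohormone convertase (-3.67), Klra2, a lectin-like receptor of the Ly49 family (-3.94), Sncaip, which encodes synphilin-1 (-3.82), and Sez6l2, a membrane protein best known from neurons (-3.58), completed the set on the log2 scale, together with Rn7sk. Rn7sk is a small nuclear RNA without a poly-A tail, whereas the libraries were made with poly-A selection. Its untreated values spread from 404 to 1690, and its fall (log2 change -3.96 ± 1.02, adjusted p = 0.00628) had a wide error.

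The genes of the IL-4 receptor alpha chain and of STAT6 were not called. Il4ra was at 1574, 1888 and 1738 untreated and 1732, 1806 and 1896 with IL-4, with overlapping groups (log2 change 0.07 ± 0.0905, adjusted p = 0.636), and Stat6 at 8254, 8363 and 8625 untreated and 7479, 7788 and 7821 with IL-4 (log2 change -0.13 ± 0.0566, adjusted p = 0.0991). The Stat6 libraries did not overlap, although the difference missed the threshold; it passed with quantile normalization (adjusted p = 0.00261) and with DESeq2 (adjusted p = 0.0412). Of 13 receptor chains and JAK-STAT partners tested, 3 were higher, 3 lower and 7 not called, with a median log2 change of 0.02; over all genes tested 15.8% were higher, 14.5% lower and the median was 0.00, and the lists that follow are set against the same values. Jak2 was the largest rise, at 1646, 1753 and 1728 untreated and 3804, 5309.9 and 5544 with IL-4 (log2 change 1.50 ± 0.111, adjusted p = 1.7e-08), followed by Il21r (1.33), a receptor that also uses the common gamma chain. Il13ra1, the chain that lets cells answer both IL-13 and IL-4, fell from 550.4, 532 and 640.1 to 280.2, 291 and 347 (log2 change -0.91 ± 0.142, adjusted p = 8.59e-05), as did the phosphatase Ptpn6 (-0.74) and the IL-10 receptor chain Il10ra (-0.85).

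Several feedback inhibitors of the pathway rose steeply. Of 12 tested, 7 rose, 2 fell and 3 were not called. Cish (chr9:107296026-107302784, plus strand), which blocks STAT docking at cytokine receptors, was at 9.96, 12.1 and 17.1 untreated and 810.3, 685 and 834 with IL-4 (log2 change 5.81 ± 0.348, adjusted p = 1.31e-09). Socs1 (chr16:10782240-10785536, minus strand), which inhibits Janus kinases, was at 34.4, 32.9 and 27.8 untreated and 1023, 1004 and 841 with IL-4 (log2 change 4.87 ± 0.196, adjusted p = 1.3e-11). Socs2, known as a brake on growth hormone signalling, was at 12.7, 6.06 and 13.9 untreated and 181, 188 and 174 with IL-4 (log2 change 4.01 ± 0.371, adjusted p = 2.56e-07). The groups did not overlap in any of the 3 genes. Socs6 rose less (0.44), and Pias3, an inhibitor of STAT3, fell (-0.65).

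Of 22 transcription factors tied to IL-4 in macrophages, 14 rose, 4 fell and 4 were not called, with a median log2 change of 0.84. Irf4, which is needed for several alternative activation genes, was at 48.0, 65.8 and 72.7 untreated and 993, 1071 and 986 with IL-4 (log2 change 4.03 ± 0.222, adjusted p = 4.87e-10). Bhlhe40, a repressor of the basic helix-loop-helix family, rose from 770.4, 631 and 605 to 8986, 7776 and 8405 (log2 change 3.65 ± 0.310, adjusted p = 8.63e-08), and Nfil3, a bZIP repressor, from 445, 465 and 643 to 3008, 3413 and 3528 (log2 change 2.69 ± 0.223, adjusted p = 6.36e-08). Egr2, an early growth response factor, was at 21.7, 19.1 and 17.1 untreated and 125, 107 and 143 with IL-4 (log2 change 2.63 ± 0.247, adjusted p = 2.95e-07). All 4 factors were higher in each IL-4 library than in any untreated one. The bZIP factor Batf3 (2.83), the MITF relative Tfec (1.59) and Pparg, the lipid-activated nuclear receptor (1.22), also rose. Maf, a factor of resident macrophages, fell from 5887, 8407 and 6679 to 1430.1, 1860.1 and 1338 (log2 change -2.18 ± 0.177, adjusted p = 5.03e-08).

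All 9 chemokine genes linked to IL-4 that were tested rose, with a median log2 change of 4.49. As with every list here, its members were chosen with earlier results of these data known. The share that rose is therefore not independent of that choice. Ccl22, which draws CCR4-bearing T cells, was at 7.24, 16.5 and 11.4 untreated and 2054, 2312 and 1512 with IL-4 (log2 change 7.31 ± 0.302, adjusted p = 1.74e-11). Ccl17, the other CCR4 ligand, had 2 reads untreated and 257 with IL-4, a ratio of 124 (exact 95% interval 34.1 to 1033), with libraries at 1.81, 0 and 0 untreated and 118, 77.3 and 40.1 with IL-4. Ccl24, an eosinophil attractant, was at 5.43, 1.73 and 0 untreated and 105, 125 and 77.1 with IL-4 (log2 change 5.29 ± 0.691, adjusted p = 1.27e-05). The IL-4 libraries were above the untreated ones in every case. The monocyte attractants Ccl7 (48.9, 35.5 and 25.3 untreated and 847, 776 and 817 with IL-4; log2 change 4.49 ± 0.457, adjusted p = 7.72e-07) and Ccl8 (0.905, 7.80 and 0.816 untreated and 248, 271 and 216 with IL-4; log2 change 6.29 ± 0.448, adjusted p = 1.09e-08) rose as well, and the abundant Ccl9 went from 19534, 21249.5 and 21042 to 46117, 48532 and 39467 (log2 change 1.11 ± 0.106, adjusted p = 3.27e-07). The inflammatory chemokines and their receptors went both ways: of 18 tested, 5 rose and 6 fell. Ccl5 (2.26), Ccr1 (2.48) and Ccr7, the lymph node homing receptor (3.69), rose on the log2 scale, while Ccl3 fell from 2385, 2158 and 2076 to 796, 757 and 618 (log2 change -1.61 ± 0.205, adjusted p = 9.29e-06).

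Other genes of arginine metabolism rose beside Arg1. Of 24 arginine and polyamine genes tested, 12 rose, 0 fell and 12 were not called; without IL-4 replicate 1 the count of rises was 7. Nos2 (chr11:78920787-78960254, plus strand), the inducible nitric oxide synthase that competes with arginase for arginine and is best known as a product of interferon-gamma and bacterial signals, was at 53.4, 36.4 and 40.8 untreated and 1699, 2072 and 2072 with IL-4 (log2 change 5.46 ± 0.250, adjusted p = 5.31e-11). The 3 IL-4 libraries were within a narrow range and far above the untreated ones. Azin2, a regulator of polyamine synthesis, rose from 200.1, 169.8 and 179 to 729.7, 579 and 702 (log2 change 1.86 ± 0.163, adjusted p = 1.33e-07), and Sat1, which acetylates polyamines for export, by 0.54 on the log2 scale.

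Of 25 alternative activation markers tested, 17 rose, all by at least 2-fold, 3 fell, also by at least 2-fold, and 5 were not called; the median log2 change was 2.13, and it was the same with the genes absent from untreated cells set at their lower bounds. Several members of this list were described above. Mrc1, the mannose receptor, was at 6710.1, 7811 and 5776 untreated and 24836, 31307 and 32834 with IL-4 (log2 change 2.13 ± 0.249, adjusted p = 3.84e-06), and Clec10a, a second CD301 lectin, at 72.4, 178 and 186 untreated and 613, 864 and 953 with IL-4 (log2 change 2.56 ± 0.300, adjusted p = 3.87e-06). Cdh1, E-cadherin, which takes part in macrophage fusion, was at 1.81, 3.46 and 2.45 untreated and 132, 76.2 and 137 with IL-4 (log2 change 5.0 ± 0.556, adjusted p = 2.19e-06). In each, the lowest IL-4 library was above the highest untreated one. The falling members were F13a1, a coagulation factor subunit (-2.60), Cd163, the haemoglobin scavenger receptor (-1.59), and Stab1, a scavenger receptor (-1.04). Of 21 lectins tested, 8 rose and 4 fell: the beta-glucan receptor Clec7a (dectin-1) went from 8282, 8120.3 and 7493 to 36339, 41093 and 41078 (log2 change 2.31 ± 0.117, adjusted p = 1.63e-10), and Clec12a, an inhibitory receptor, from 18554, 19538 and 17647 to 6601, 7806 and 5214 (log2 change -1.52 ± 0.142, adjusted p = 2.69e-07).

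Antigen presentation genes of MHC class II rose: 9 of 12 tested were higher, 2 lower and 1 not called, with a median log2 change of 1.02. Cd74, the invariant chain, was at 6828, 10521 and 7493 untreated and 45575, 68173 and 43942 with IL-4 (log2 change 2.66 ± 0.188, adjusted p = 9.88e-09). H2-Aa (2.15), H2-Ab1 (2.12) and H2-Eb1 (2.13), which encode the surface chains, moved by similar amounts on the log2 scale. Replicate 2 was the highest in both groups for each of these 4 genes, and the groups stayed apart. The falls were H2-Ob, a subunit that restrains peptide loading (-2.14), and H2-DMb2, a subunit of the peptide loading factor H2-M (-1.05); H2-DMb2 was not called without untreated replicate 2 or 3 or without IL-4 replicate 2 or 3. Of 16 costimulatory and checkpoint ligands, 5 rose and 4 fell, and with the animal as a block 7 fell. The checkpoint ligand Cd274 (PD-L1) rose from 1520.0, 1483 and 1792 to 5303, 5933 and 7610.5 (log2 change 1.96 ± 0.188, adjusted p = 3.64e-07) and the costimulatory receptor Cd40 by 1.62, while the ligand Icosl fell from 368, 450.4 and 379.7 to 63.5, 109 and 90.4 (log2 change -2.20 ± 0.206, adjusted p = 2.76e-07).

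Some dendritic cell markers moved with these genes. The 11 such markers in the table summed to 1187 to 2186 untreated and 19112 to 23674 with IL-4, and almost all of that sum was Itgax (CD11c), which was at 2047, 1422 and 1021 untreated and 22063, 19663 and 17633 with IL-4 (log2 change 3.78 ± 0.235, adjusted p = 2.01e-09). Of 10 tested, 5 rose (Itgax, Irf4, Batf3, Ccr7 and Zbtb46), 2 fell (Xcr1 and Kit) and 3 were not called. The falls were 0 without untreated replicate 1 or 2 or without IL-4 replicate 2, and 1 without IL-4 replicate 1. With a pseudocount of 5 the falls were also 0. Xcr1 was not called with the 6 KO libraries paired by animal as a block (adjusted p = 0.149). Fitted alone without the block, the same 6 libraries did not call Xcr1 either (adjusted p = 0.117). Zbtb46, a factor of conventional dendritic cells, was at 7.24, 8.66 and 7.35 untreated and 64.5, 57.4 and 69.8 with IL-4 (log2 change 2.89 ± 0.573, adjusted p = 0.000811). Clec9a, a receptor of cross-presenting dendritic cells, stayed at few counts, with means of 5.22 untreated and 7.33 with IL-4, and Flt3, Cd209a, Siglech and Ccr9 were not tested. The part of dendritic cells in the MHC class II result was not tested. Of the 16 macrophage markers, 9 fell; the sum of the markers went from 370057 to 413808 untreated to 296690 to 334577 with IL-4. Cd14, the lipopolysaccharide co-receptor, fell from 40218, 43004 and 43662 to 7649.6, 9629.7 and 10981 (log2 change -2.18 ± 0.301, adjusted p = 2.3e-05).

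**Figure D3:**
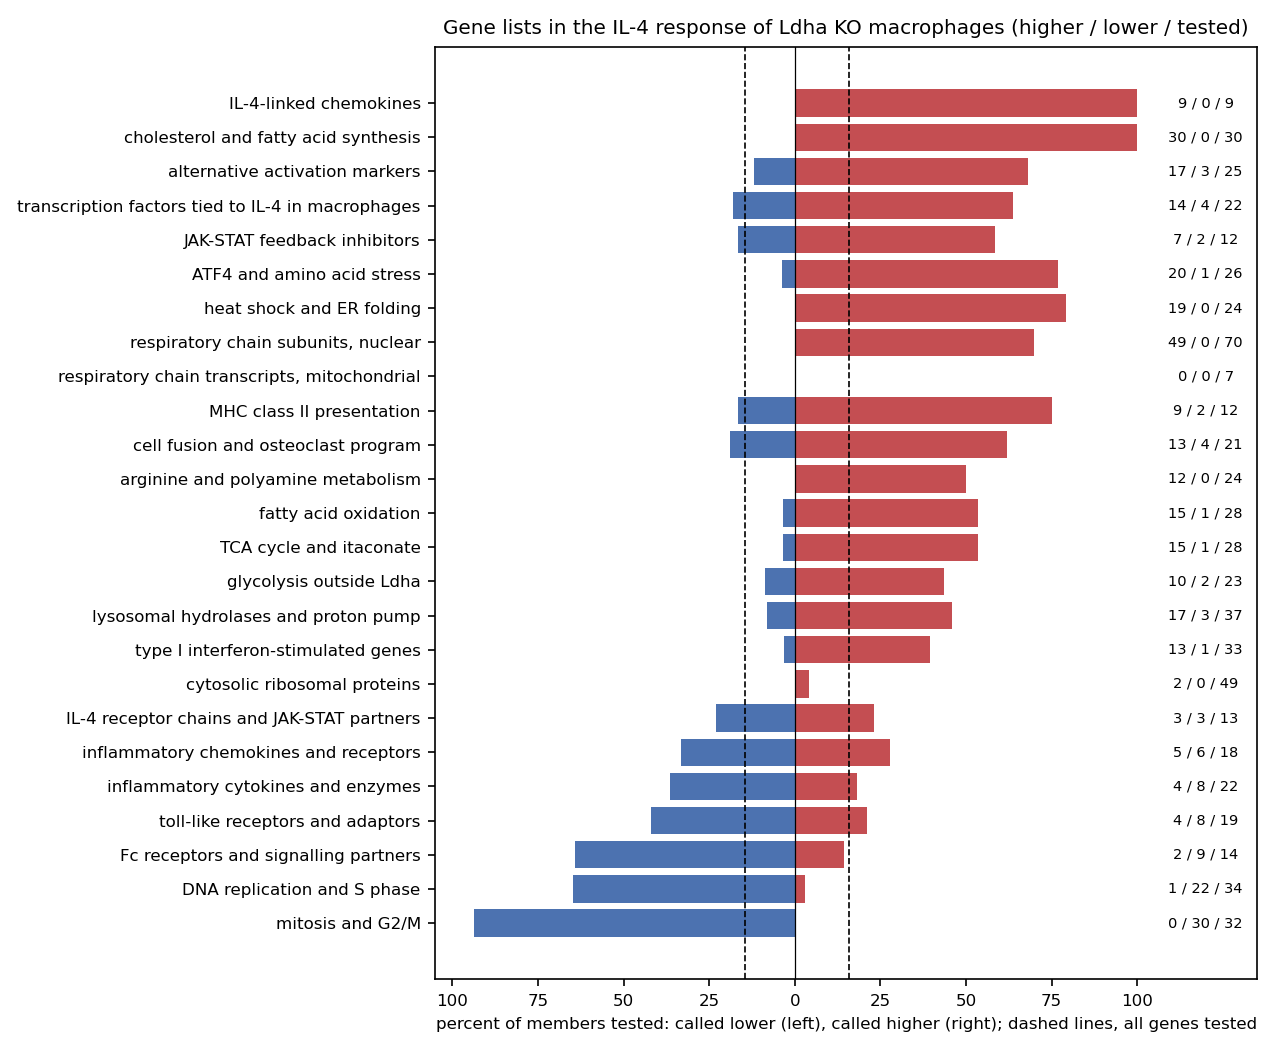
Share of the tested members of 25 gene lists called higher (red, right) and lower (blue, left) in the IL-4 response of Ldha KO macrophages, with the counts higher, lower and tested at the right; dashed lines give the shares over all genes tested, 15.8% and 14.5%. All members of the IL-4-linked chemokine and the sterol and fatty acid synthesis lists were higher, and 30 of 32 mitotic genes were lower. The lists were chosen with earlier results of these data known.

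Every tested gene of cholesterol and fatty acid synthesis rose: 30 of 30, none with overlapping libraries, 11 of them by at least 2-fold, with a median log2 change of 0.93. These genes are the known targets of the SREBP factors, and they also include the factors' own genes. The sterol regulatory motif TCACNCCAC occurred in 1 of 26 promoters of this list and in 1.16% of all promoters. Scd1 and Scd2, desaturases that make monounsaturated fatty acids, led: Scd1 was at 395, 231 and 240.0 untreated and 2610.3, 1867 and 1672 with IL-4 (log2 change 2.84 ± 0.264, adjusted p = 2.69e-07) and Scd2 at 5754, 3996 and 3399.8 untreated and 27445, 22822 and 19245 with IL-4 (log2 change 2.42 ± 0.180, adjusted p = 1.7e-08). Replicate 1 was the highest in both groups for both genes. Hmgcs1, which makes the precursor of mevalonate, was at 3421, 2734 and 2437 untreated and 7803, 6767 and 6063 with IL-4 (log2 change 1.27 ± 0.109, adjusted p = 1.04e-07), Lss, which closes the sterol rings, at 1631, 1164 and 1244 untreated and 3391, 3083 and 2966 with IL-4 (log2 change 1.24 ± 0.113, adjusted p = 2.25e-07), and Nsdhl, a later sterol enzyme, at 929.7, 751 and 729 untreated and 1909, 1709.7 and 1485 with IL-4 (log2 change 1.08 ± 0.103, adjusted p = 3.51e-07). The smallest rise was that of Srebf2, at 0.35, which was not called without untreated replicate 3 (adjusted p = 0.0679). Among 13 genes of LXR and cholesterol efflux, 6 rose and 3 fell; the sterol exporter Abcg1 rose from 6805, 7078 and 7152 to 14067, 15139 and 14814 (log2 change 1.06 ± 0.0997, adjusted p = 2.84e-07), and Mylip, which degrades the LDL receptor, fell by 0.66 on the log2 scale. With quantile normalization 3 of these 13 rose.

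Of 21 genes of PPAR-gamma and lipid uptake and storage, 10 rose and 1 fell. Olr1, a receptor for oxidized lipoprotein, was at 4.53, 2.60 and 3.27 untreated and 144, 129.5 and 260.4 with IL-4 (log2 change 5.28 ± 0.604, adjusted p = 3.02e-06), and replicate 3 was the highest IL-4 library. Of 28 fatty acid oxidation genes, 15 rose and 1 fell, all by less than 2-fold; without untreated replicate 2, or without IL-4 replicate 1, the count of rises was 9. The 1 fall was not called without untreated replicate 2 or 3 or without IL-4 replicate 1 or 2. Echs1, which hydrates enoyl-CoA, had the smallest adjusted p, at 1464, 1401 and 1402 untreated and 2962, 2884 and 2563 with IL-4 (log2 change 0.98 ± 0.0765, adjusted p = 3.08e-08).

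Nuclear genes of the respiratory chain mostly rose by small amounts, with log2 changes from -0.13 to 0.76. Of 70 tested, 49 were higher, 0 lower and 21 not called, with a median log2 change of 0.45 and no member at 2-fold. Without IL-4 replicate 1 the count of rises was 26, and without IL-4 replicate 3 it was 60. Replicate 1 was the highest of the 3 IL-4 libraries for each of the 5 genes with the smallest adjusted p. Those were Uqcrc1 (0.60), Ndufs8 (0.76), Atp5b (0.61), Cyc1 (0.58) and Atp5a1 (0.52), subunits of complexes III, I and V and cytochrome c1. Atp5b, the catalytic subunit of ATP synthase, was at 17283, 16973 and 16319 untreated and 27795, 26319 and 23344 with IL-4 (log2 change 0.61 ± 0.0915, adjusted p = 5.34e-05). The groups did not overlap. None of the 7 mitochondrially encoded transcripts tested was called, at a median of -0.05. In the same libraries 2 of 49 cytosolic ribosomal protein genes were called higher, Rpl12 (0.37) and Rps18 (0.32). None was called when any 1 of the untreated replicates, or IL-4 replicate 1 or 2, was left out, and 7 were called without IL-4 replicate 3.

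In the TCA cycle, 15 of 28 genes rose and 1 fell. Acod1, which diverts aconitate to the antimicrobial metabolite itaconate, was at 3045, 2901 and 3737 untreated and 10567, 13723 and 14213 with IL-4 (log2 change 1.99 ± 0.206, adjusted p = 9.51e-07), the 1 gene of the list past 2-fold. Slc25a1, the mitochondrial citrate exporter that feeds lipid synthesis, rose from 2632, 2527 and 2584 to 4573, 4021 and 3718 (log2 change 0.66 ± 0.0826, adjusted p = 7.51e-06). Of 23 glycolysis genes outside Ldha, 10 rose, 2 fell and 11 were not called, at a median of 0.20; 1 fell when any 1 of the untreated replicates, or IL-4 replicate 2, was left out. Hexokinases Hk2 (1639, 1559 and 1697 untreated and 3138, 3155 and 3527 with IL-4; log2 change 1.00 ± 0.0860, adjusted p = 1.02e-07) and Hk3 (0.88) and the sugar transporter Slc2a6 (1.11) rose. Of 23 genes of lactate and pyruvate handling, 12 rose, 3 fell and 8 were not called, at a median of 0.26, and 8 rose without untreated replicate 2. Slc16a1, a lactate transporter, rose from 536, 521 and 439 to 715, 666 and 737 (log2 change 0.50 ± 0.0872, adjusted p = 0.000224), its relative Slc16a7 fell (-0.47; not called without IL-4 replicate 1) and Slc16a3 was not called (-0.18). Of the kinases that inhibit pyruvate dehydrogenase, Pdk1 fell from 2957, 2718 and 2974 to 1815, 1697 and 1865 (log2 change -0.69 ± 0.108, adjusted p = 9.37e-05) and Pdk2 fell (-0.54), while Pdk3 rose (0.53). Lactate dehydrogenase activity was not measured here.

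Amino acid stress and protein folding genes also rose. Of 26 ATF4 targets and related genes, 20 were higher and 1 lower, at a median of 0.71; the 1 fall was not called when any 1 of the untreated replicates, or IL-4 replicate 1 or 2, was left out. Psat1 and Phgdh, enzymes of serine synthesis, were at 511, 559.5 and 475 untreated and 1609.5, 1453 and 1561 with IL-4 (log2 change 1.58 ± 0.131, adjusted p = 6.35e-08) and 351, 316 and 421 untreated and 1093, 856 and 1169 with IL-4 (log2 change 1.51 ± 0.166, adjusted p = 1.86e-06). Atf4 rose from 4998, 4578 and 5138 to 8974, 8121 and 8673 (log2 change 0.81 ± 0.0836, adjusted p = 9.36e-07). Every IL-4 library was above every untreated one in these 3 genes.

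Of 24 heat shock and endoplasmic reticulum (ER) folding genes, 19 rose and 5 were not called, at a median of 0.59. Pdia4, a disulfide isomerase, was at 2209.8, 2446 and 2466 untreated and 5553, 5427 and 5972 with IL-4 (log2 change 1.25 ± 0.0657, adjusted p = 2.66e-10), and Hsph1, a cytosolic chaperone, at 2223, 1971 and 2126 untreated and 5121, 4439 and 4840.2 with IL-4 (log2 change 1.19 ± 0.0737, adjusted p = 1.94e-09). Calr, the calcium-binding lectin chaperone, was at 20012, 20023 and 19484 untreated and 42159, 41134 and 36027 with IL-4 (log2 change 1.00 ± 0.0892, adjusted p = 1.61e-07), and Pdia6 at 4568, 4818 and 4496 untreated and 9349.8, 9065 and 8407 with IL-4 (log2 change 0.95 ± 0.0887, adjusted p = 2.8e-07). The groups of each of the 4 did not overlap. The ER stress element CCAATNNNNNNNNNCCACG, known as the site of ATF6 with NF-Y, occurred in 7 of 21 promoters of this list (33.3%) and in 0.138% of all promoters (18 of 13010). The first 5 letters are also the CCAAT box, which occurred in 85.7% of the list and 37.8% of all. Both shares describe a list chosen by the function of its genes, whichever way these move, and binding was not tested. Calr (chr8:84846882-84847181, minus strand) and Pdia6 (chr12:17266339-17266638, plus), the members with the largest rises among those that hold the element, are shown with it in capitals; in Calr it reads on the opposite strand.
Calr: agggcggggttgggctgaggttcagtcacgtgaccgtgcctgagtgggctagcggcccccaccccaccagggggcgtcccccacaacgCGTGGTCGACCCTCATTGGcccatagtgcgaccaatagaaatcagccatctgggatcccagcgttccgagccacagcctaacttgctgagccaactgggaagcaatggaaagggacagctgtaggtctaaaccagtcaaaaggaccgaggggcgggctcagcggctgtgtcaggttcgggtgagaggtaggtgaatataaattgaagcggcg
Pdia6: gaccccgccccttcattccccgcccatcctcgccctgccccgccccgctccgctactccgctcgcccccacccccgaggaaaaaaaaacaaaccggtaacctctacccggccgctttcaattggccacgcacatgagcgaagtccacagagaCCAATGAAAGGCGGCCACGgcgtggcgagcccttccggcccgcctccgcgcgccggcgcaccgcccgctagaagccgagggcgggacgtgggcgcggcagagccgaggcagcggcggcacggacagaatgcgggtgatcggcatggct
The element lies from position -162 to -144 in Calr and from -98 to -80 in Pdia6.

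**Figure D4:**
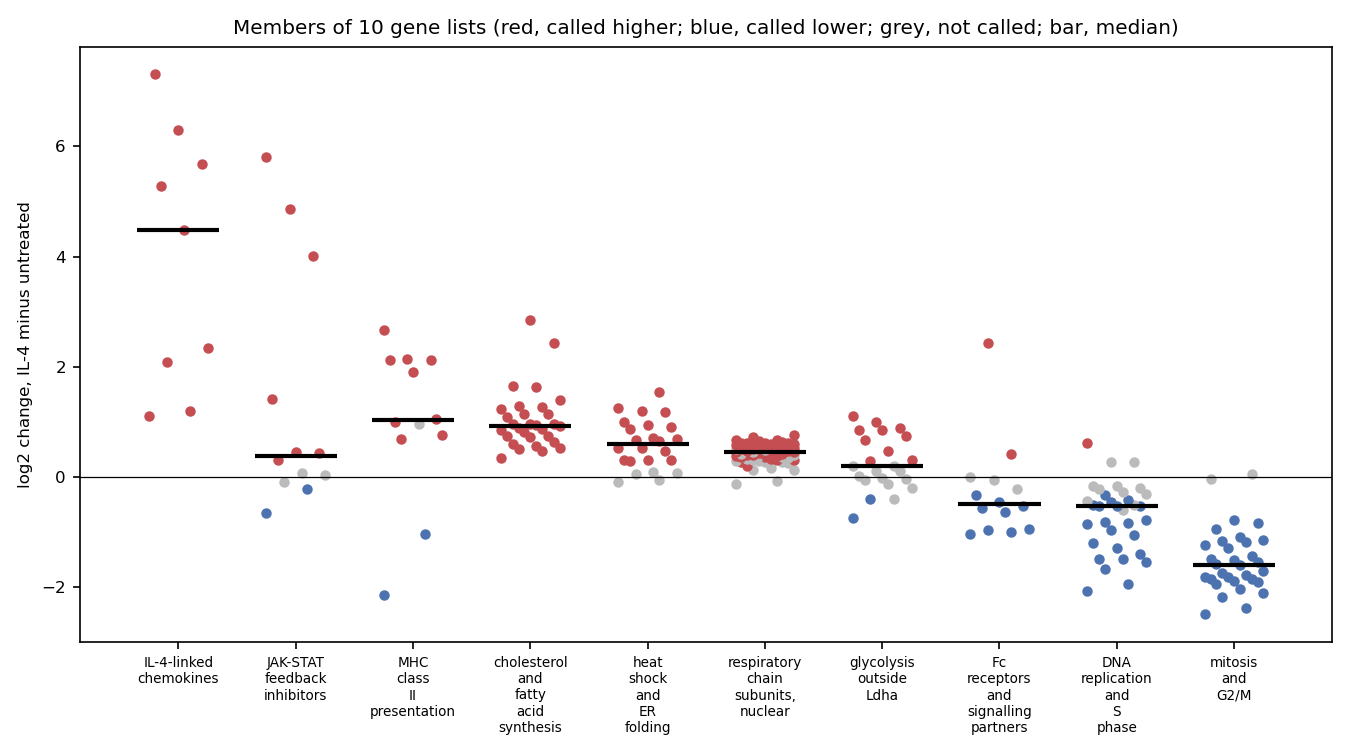
Log2 change, IL-4 minus untreated, of each tested member of 10 gene lists in Ldha KO macrophages; red points were called higher, blue lower, grey not called, and the bar is the list's median. The chemokines spread from 1.11 to 7.31, the respiratory chain genes lie close together around 0.45, and the mitotic genes centre on -1.59.

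Cell cycle genes fell. Of 32 mitotic genes, 30 were lower, 27 of them by at least 2-fold, and 2 were not called, with a median log2 change of -1.59. Ccna2, cyclin A, which overlaps Exosc9 on the opposite strand, was at 922, 963 and 643 untreated and 155, 152 and 170.0 with IL-4 (log2 change -2.38 ± 0.257, adjusted p = 1.63e-06), Top2a, the topoisomerase that untangles chromosomes, at 3580.5, 3453 and 2627 untreated and 872, 851 and 927 with IL-4 (log2 change -1.85 ± 0.211, adjusted p = 2.82e-06), and Ube2c, which loads ubiquitin onto mitotic cyclins, at 449.9, 466 and 416 untreated and 133, 115 and 109 with IL-4 (log2 change -1.89 ± 0.221, adjusted p = 3.71e-06). The untreated libraries were all above the IL-4 libraries, and among the untreated ones replicate 3 was the lowest for these genes. Of 34 replication genes, 22 fell, 1 rose and 11 were not called, at a median of -0.53. Rrm2, the ribonucleotide reductase subunit, was at 990.4, 846 and 577 untreated and 248, 194 and 177 with IL-4 (log2 change -1.94 ± 0.211, adjusted p = 1.76e-06), and Cdc6, a licensing factor, at 193, 210.5 and 147 untreated and 41.3, 37.6 and 49.2 with IL-4 (log2 change -2.07 ± 0.231, adjusted p = 2.32e-06). Pcna, the polymerase clamp, did not pass the test, with means of 6911 untreated and 8317 with IL-4; with the animal as a block it was called higher (adjusted p = 0.0154), and 2 genes of the list rose. Of 18 D cyclins, inhibitors and partners, 6 fell and 2 rose; 3 fell without untreated replicate 2, 10 fell when the 6 KO libraries were fitted alone, and 1 rose when any 1 of the untreated replicates, or IL-4 replicate 1, was left out. Ccnd3 fell from 1121, 1110.4 and 1264 to 455, 463 and 437 (log2 change -1.36 ± 0.103, adjusted p = 2.08e-08) and Cdkn1a, the inhibitor p21, rose from 5935, 6132 and 6908 to 10779.9, 10363 and 11567 (log2 change 0.79 ± 0.187, adjusted p = 0.00355). No measure of division was made.

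The promoters of mitotic genes shared short elements. TTTGAA, the cell cycle homology region at which repressor complexes are known to sit, occurred in 22 of 28 promoters of the list (78.6%) and in 12.4% of all promoters, and CCAAT in 82.1% against 37.8%. These shares describe the list, whichever way its genes move. Cenpf (chr1:189688037-189688336, minus strand), a kinetochore protein at 597, 728 and 555 untreated and 95.7, 109 and 126 with IL-4 (log2 change -2.50 ± 0.365, adjusted p = 4.11e-05), and Kif2c (chr4:117178723-117179022, minus), a motor that shortens microtubules, at 320.5, 360.3 and 286 untreated and 81.6, 65.8 and 64.3 with IL-4 (log2 change -2.18 ± 0.246, adjusted p = 2.6e-06), fell most among the members that hold TTTGAA on either strand, and both elements are in capitals.
Cenpf: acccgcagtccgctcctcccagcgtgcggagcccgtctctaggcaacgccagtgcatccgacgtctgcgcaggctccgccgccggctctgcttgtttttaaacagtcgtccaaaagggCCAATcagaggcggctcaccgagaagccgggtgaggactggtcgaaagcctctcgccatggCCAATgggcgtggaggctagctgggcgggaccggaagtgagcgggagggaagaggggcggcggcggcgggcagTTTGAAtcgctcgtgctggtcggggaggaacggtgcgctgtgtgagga
Kif2c: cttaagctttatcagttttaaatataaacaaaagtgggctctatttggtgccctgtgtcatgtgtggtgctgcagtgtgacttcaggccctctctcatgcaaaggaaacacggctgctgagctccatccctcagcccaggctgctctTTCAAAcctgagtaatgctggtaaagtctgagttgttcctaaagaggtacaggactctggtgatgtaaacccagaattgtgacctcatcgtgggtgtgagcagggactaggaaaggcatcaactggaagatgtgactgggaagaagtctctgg
In Cenpf the TTTGAA lies at positions 3 to 8 after the start with CCAAT at -71 to -67 and -132 to -128, and in Kif2c the match at -103 to -98 is on the opposite strand with no CCAAT in the window.

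Inflammatory genes moved in both directions. Of 22 cytokines and enzymes tested, 4 rose and 8 fell. Csf1, which encodes M-CSF, was at 123, 157 and 231 untreated and 1482, 1834 and 3079 with IL-4 (log2 change 3.62 ± 0.317, adjusted p = 1.34e-07), and Ptgs1, the constitutive cyclooxygenase, at 581, 545 and 478 untreated and 3725, 3301 and 3175 with IL-4 (log2 change 2.67 ± 0.151, adjusted p = 7e-10). The other two rises, named after their values were seen, were those of the inducible cyclooxygenase Ptgs2, at 50.7, 65.8 and 74.3 untreated and 608, 868 and 1493 with IL-4 (log2 change 3.86 ± 0.466, adjusted p = 5.48e-06), and Il6, at 1.81, 4.33 and 3.27 untreated and 14.1, 44.9 and 179 with IL-4 (log2 change 3.64 ± 0.690, adjusted p = 0.000533), where the IL-4 libraries themselves ranged from 14.1 to 179. Ebi3, a subunit of interleukins 27 and 35, fell from 931, 1280.2 and 1151 to 429, 394 and 424 (log2 change -1.42 ± 0.0985, adjusted p = 8.35e-09) and Alox5ap, needed to make leukotrienes, from 4752, 4825 and 5369 to 2573, 2089 and 1858 (log2 change -1.21 ± 0.111, adjusted p = 2.3e-07).

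Many receptors of innate recognition fell. Of 19 toll-like receptor genes and adaptors, 8 fell and 4 rose, at a median of -0.20. Tlr2, which senses bacterial lipoproteins, was at 2818, 3232 and 3444 untreated and 949, 1144 and 1281 with IL-4 (log2 change -1.50 ± 0.129, adjusted p = 1.02e-07), and Tlr9, which senses CpG DNA, at 1784, 2459.9 and 1788 untreated and 383, 852 and 651 with IL-4 (log2 change -1.73 ± 0.253, adjusted p = 4.13e-05). Tlr1 rose (0.77). Of 14 Fc receptor genes and partners, 9 fell and 2 rose. Fcgr2b, the inhibitory receptor for IgG, rose from 1148, 1501 and 1368 to 7335, 7122 and 7036 (log2 change 2.43 ± 0.132, adjusted p = 4.08e-10), while the activating receptor Fcgr4 fell from 880.0, 939.8 and 1098 to 409, 500.3 and 509.9 (log2 change -1.04 ± 0.137, adjusted p = 1.39e-05) and the kinase Lyn from 4594, 5381 and 4587 to 2288, 2544 and 2431 (log2 change -1.0 ± 0.0941, adjusted p = 2.95e-07). The groups of these 3 genes did not overlap. Fcgr3, an activating receptor, was also called higher (0.42).

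Genes of cell fusion and the osteoclast program rose in 13 of 21 cases and fell in 4. Beside Ocstamp and Cdh1, Atp6v0d2, a proton pump subunit of osteoclasts and fusing macrophages, was at 3888, 2961 and 2633 untreated and 26957, 23954 and 24812 with IL-4 (log2 change 3.01 ± 0.169, adjusted p = 6.05e-10), and Itgb3, the beta 3 integrin, at 1132, 857 and 867 untreated and 4866, 3873 and 4263 with IL-4 (log2 change 2.19 ± 0.278, adjusted p = 9.2e-06). Tnfrsf11a (RANK), the receptor that starts osteoclast formation, fell from 2731, 3018 and 2689 to 1872, 1814 and 1914 (log2 change -0.59 ± 0.0702, adjusted p = 4.66e-06). Of 37 lysosomal genes, 17 rose and 3 fell. With quantile normalization 11 rose and 9 fell, and with the animal as a block over all libraries 5 fell. Ctsz, a cathepsin, rose from 45465, 44206 and 45694 to 98263, 96271 and 83306 (log2 change 1.03 ± 0.114, adjusted p = 1.91e-06), and Sgsh, a heparan sulfate sulfatase, fell from 1267, 1379.8 and 1368 to 455, 471 and 480.1 (log2 change -1.51 ± 0.124, adjusted p = 5.83e-08).

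Interferon-stimulated genes were raised in part. Of 33 type I genes tested, 13 rose, 1 fell and 19 were not called; without IL-4 replicate 1, which was the lowest IL-4 library for each of the 13, 22 rose, and without IL-4 replicate 2, 2 fell. Zbp1, a sensor of Z-form nucleic acid, was at 197, 331 and 346 untreated and 678, 1443 and 1295 with IL-4 (log2 change 1.93 ± 0.232, adjusted p = 5.2e-06), and Isg15, a ubiquitin-like modifier, at 442, 531 and 589.5 untreated and 825, 1421 and 1411 with IL-4 (log2 change 1.19 ± 0.180, adjusted p = 5.71e-05). Of 30 genes known to answer interferon-gamma, 13 rose and 2 fell; Gbp2, a guanylate-binding protein, went from 323, 372 and 436 to 1698, 3363 and 2340.0 (log2 change 2.66 ± 0.170, adjusted p = 2.68e-09), and Irf1 from 1189.6, 1431 and 1360.3 to 2722, 3646 and 3174 (log2 change 1.25 ± 0.109, adjusted p = 1.26e-07).

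The response of WT macrophages to IL-4, from their own untreated and IL-4 libraries, was used to ask where the KO response differed. In WT 4332 genes were called (30.3%), 3204 genes were called in the same direction in both genotypes and 0 in opposite directions. The log2 changes of the genotypes had a Pearson correlation of 0.844 across the 14288 genes, which are not independent replicates and share the authors' normalization. A test of the difference of the responses called 1 gene (0.007% of those tested), with 774 genes at an unadjusted p under 0.05. Without any difference a share of 0.05 of the genes tested would be expected there, and 774 of 14288 is close to that. With the animal as a block the count of genes called was 12 over all libraries and 3 over the 12 libraries of these groups. With DESeq2 it was 21. Leaving out 1 library gave 2 without WT untreated replicate 1 or WT IL-4 replicate 1, 3 without WT IL-4 replicate 2, and 1 in every other case.

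The called gene, Gm6192, is annotated as a processed pseudogene (chr19:7959743-7961107, minus strand). Its normalized count in KO was 317, 372 and 293 untreated and 378, 353 and 337 with IL-4, with overlapping groups (log2 change 0.13 ± 0.162, adjusted p = 0.609). In WT it was 366, 363 and 332 untreated and 69.9, 82.0 and 80.0 with IL-4. The difference of the responses, KO minus WT, was 2.31 ± 0.229 on the log2 scale (adjusted p = 0.000176), and reads of a pseudogene may stem from its parent gene. Nos2 stood nearest to the threshold among the genes described above. In WT it was 41.9, 38.8 and 38.2 untreated and 719, 243 and 348 with IL-4, so each KO IL-4 library was above each WT IL-4 library. Its difference was 2.19 ± 0.353 (adjusted p = 0.0668), and over 23 alternative settings the adjusted p ran from 8.18e-06 to 0.333, under 0.05 in 7 of them. The WT IL-4 library of replicate 2 held 9.77 M reads, the fewest of the series; leaving it out gave a difference of 1.84 (adjusted p = 0.0455), and leaving out WT IL-4 replicate 1 gave 2.62 (adjusted p = 8.18e-06).

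**Figure D5:**
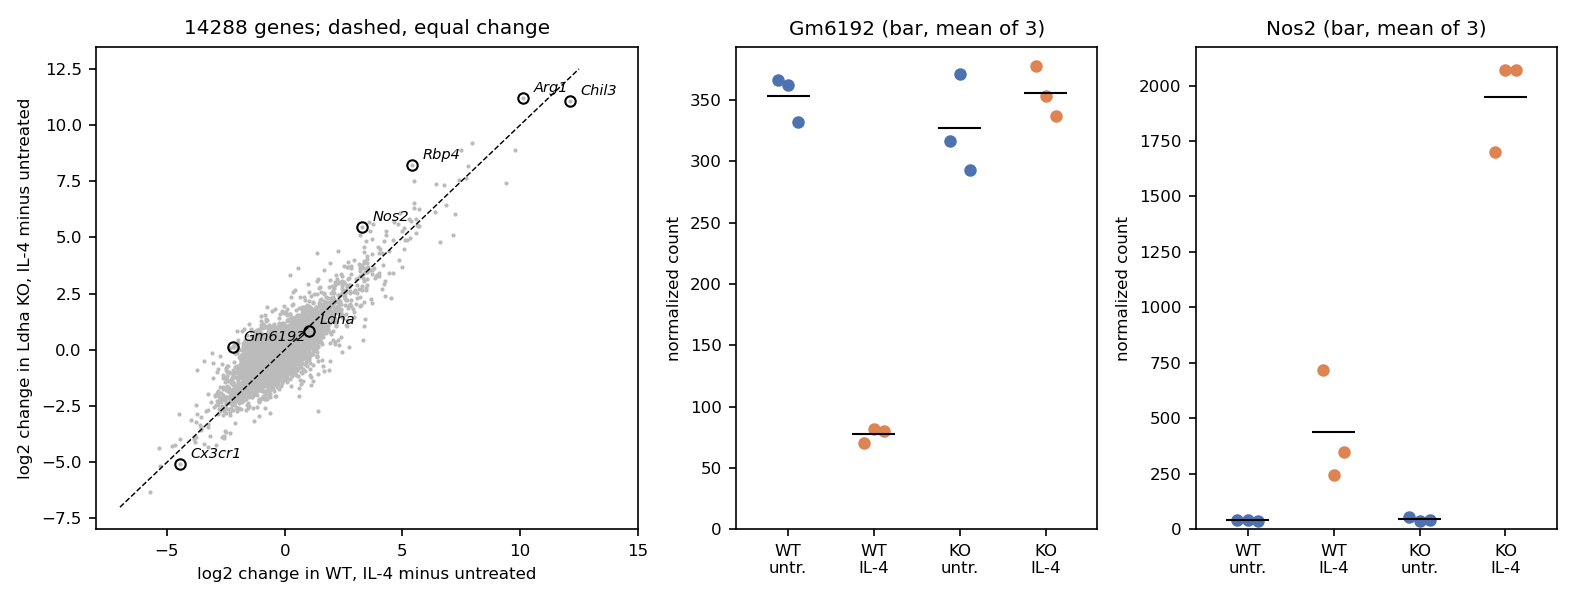
Left, log2 change under IL-4 in Ldha KO (y axis) against WT (x axis) macrophages for 14288 genes, with the line of equal change dashed. Middle and right, normalized counts of Gm6192 and Nos2 in each of the 12 libraries, with bars for the mean of 3; Gm6192 falls to 69.9 to 82.0 in WT alone, and Nos2 reaches 1699 to 2072 in KO against 243 to 719 in WT.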

How the data were processed

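RNA was sequenced from 18 cultures of bone marrow-derived macrophages, 3 in each of 6 groups. Per the labels, libraries were made with a directional kit and poly-A selection; per the submitters' processing notes, STAR 2.5 did the alignment (build GRCm38) and HTSeq 0.6 the counting; the sources used here do not say whether it used strand. The values deposited by the authors are a signal per gene and library: read counts divided by 1 size factor per library. Whole reads were recovered from them, since 100.0% of values were whole multiples of the value of 1 read within 0.1 reads; counts of reads, totals and counting intervals come from these.

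A gene was kept if 3 or more of the 18 libraries reached a normalized count of 10 (14288 genes). Limma 3.58.1 in R 4.3.3 was fitted with a trend to log2(normalized count + 1), with 1 mean per group over all 18 libraries. The test was two-sided with Benjamini-Hochberg adjustment over all genes tested, and a gene was called at an adjusted p under 0.05. Changes on this scale understate those of low genes. The ± after a log2 change is the standard error (n = 3 libraries a group); the depth of 28.6 to 49.0 M reads makes 1 read worth 0.607 to 1.04 normalized counts. The fit was tested on simulated data. The shared codes, read as animals, pair the libraries. Deviations from the group means of same-code pairs had correlations of 0.137, 0.202 and 0.204 across genes, and those of other pairs -0.143 to -0.056. The 3 deviations of a group cancel for each gene, so the negative values follow in part from the positive ones. With the codes read as animals, the 6 KO libraries compared come from 3 animals. The fit without the block then treats libraries of the same animal as independent. Values with the block are given where they change the KO-response call of a named gene. The block also moved the counts of some lists, and not all of these are given.

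Alternatives were pseudocounts of 0.5 and 5, no filter, a mean of at least 50, TMM factors, quantile normalization, edgeR 4.0.16 and DESeq2 1.42.0 on recovered reads, only the groups compared, the animal as a block, and each library left out. The gene lists and markers were chosen with earlier results of these data known. Named genes were the 15 largest changes each way among called genes whose groups did not overlap and whose higher group averaged 100 or more, leaving out unnamed gene models, the 5 smallest adjusted p of each list, a fixed set of Ldha, lysozyme and IL-4 genes, and genes called in the difference between genotypes. Cd163, Cd68, Cenpf, Clec9a, Csf1r, Fcgr3, H2-DMb2, H2-Ob, Il6, Kit, Pcna, Ptgs2, Slc16a3, Slc16a7, Srebf2 and Xcr1 were named after their values were seen. Results for some list members are not reported here. Of 13010 RefSeq promoters (GRCm38.p6, 300 bases), 17 motifs were searched on both strands, and those reported were chosen after the shares were seen: TTCNNNNGAA (STAT6 type), TTCNNNGAA (STAT type), TTCCNNNNGAA (extended STAT6 type), TTCCNGGAA (GAS), TCACNCCAC and, strictly, TCACCCCAC (sterol regulatory), TTTGAA (cell cycle homology region), TTTNNCGC and, strictly, TTTCCCGC (E2F), CCAAT (NF-Y type), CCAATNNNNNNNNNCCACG (ER stress), TGATGNAAT (amino acid response), TGANNNNGC (antioxidant response), GAAANNGAAA (interferon response), GAGGAA (PU.1 core), CACGTG (E-box) and TCACGTGA (CLEAR). Each strict form lies within its loose form, GAS within the STAT type, the E-box within CLEAR and CCAAT within the ER stress motif, so these share matches; the STAT6 forms differ in spacing. Interferon-gamma libraries entered only the filter, the shared estimate of the spread and the alternatives that use all libraries.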

Additional observations from a re-analysis of the deposited data

Results flagged for a closer look

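The IL-4 response of Gm6192, a gene model annotated as a processed pseudogene, differed between the genotypes by 2.31 on the log2 scale, KO minus WT. It was singled out because a test of the difference between the KO and WT responses passed the threshold for it alone (limma interaction, adjusted p = 0.000176, 3 libraries a group). The difference ran from 2.23 to 2.40 over 23 alternatives, with an adjusted p from 2.61e-23 to 0.00265. The cause was not tested.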

How the results depend on the processing

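The count of genes called in the KO response was 4318, ran from 3354 to 4431 when 1 library was left out, and from 4033 to 5149 under the other alternatives; for changes of at least 2-fold it was 1282, and ran from 1137 to 1265 and from 880 to 1438. With quantile normalization 2154 genes were higher and 2412 lower. The count for the difference between KO and WT was 3 with a pseudocount of 5, 2 without a filter, 2 with quantile normalization, 21 with DESeq2, and 1 to 3 when 1 library was left out; the cause was not tested. With the animal as a block over all libraries 5003 genes were called in the KO response and 12 in the difference, and with pairing within the groups compared 5149 and 3. Among the genes named in the text, the block changed no other call of the KO response than those of Pcna and Xcr1. For the difference between genotypes, only Gm6192 and Nos2 were followed through the alternatives. Nos2 passed the threshold with the block over all libraries (limma, adjusted p = 0.0103) but not with the block over the groups compared (adjusted p = 0.155). Of 2931 comparisons of a named gene with an alternative, 2889 kept their side of the threshold. The call was lost in 35 (H2-DMb2, Kit, Rpl12, Rps18, Slc16a7, Srebf2 and Xcr1) and gained in 7 (Csf1r, Pcna and Stat6). Direction was compared only where the main fit or the alternative called the gene, and 0 changed. Kit, Xcr1 and Clec9a were at low counts; the part of depth in their calls was not tested.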

Other observations

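Signals that macrophages send to other cells also moved in IL-4-treated Ldha KO cells. Of 18 growth factor genes tested, 8 rose and 2 fell. Nrg1, a ligand of ErbB receptors, was at 2.72, 0 and 2.45 untreated and 126, 109 and 268 with IL-4 (log2 change 6.05 ± 0.693, adjusted p = 3.02e-06, limma, as for the other adjusted p-values here), and Hbegf, a ligand of the EGF receptor, at 3.62, 12.1 and 7.35 untreated and 165, 116 and 203 with IL-4 (log2 change 4.31 ± 0.325, adjusted p = 1.97e-08). Inhba, the activin A subunit, rose from 60.7, 48.5 and 44.9 to 231, 288 and 479 (log2 change 2.61 ± 0.410, adjusted p = 8.58e-05), and the groups did not overlap in any of these genes. Pdgfb, a platelet-derived growth factor chain, fell from 4297, 4081 and 3961 to 2163, 2019 and 1832 (log2 change -1.04 ± 0.102, adjusted p = 5.04e-07). Aldh1a2, which makes retinoic acid from retinal, was at 4.53, 0 and 0.816 untreated and 166, 238 and 109 with IL-4 (log2 change 6.25 ± 0.533, adjusted p = 9.33e-08), and of 11 retinoid and vitamin D genes 5 rose and 2 fell. Of 25 matrix metalloproteinase and remodelling genes, 7 rose and 1 fell, with 11 rises when the 6 KO libraries were paired by animal as a block; Mmp13, a collagenase, went from 786, 547 and 962 to 9918, 5128 and 13534 (log2 change 3.56 ± 0.342, adjusted p = 3.7e-07) and Mmp12, the macrophage elastase, from 111802, 70079 and 90297 to 247041, 152803 and 193004 (log2 change 1.12 ± 0.211, adjusted p = 0.000496).

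Other receptor and transport genes moved in both directions. Of 17 complement genes 3 rose and 4 fell, with 2 falls without untreated replicate 2: C3, the central component, rose (1.70 on the log2 scale), while the receptor for C5a, C5ar1 (-1.69), fell. Of 16 iron genes 6 rose and 3 fell. Slc40a1 (ferroportin), the iron exporter, fell from 3057, 4216 and 3862 to 1129, 1090.4 and 1189.7 (log2 change -1.69 ± 0.158, adjusted p = 2.73e-07). Of 16 purinergic genes 5 rose and 5 fell; 3 fell without untreated replicate 2 or 3 or without IL-4 replicate 1, and 2 fell with a minimum mean normalized count of 50. Adora2b, an adenosine receptor, rose from 58.8, 67.6 and 73.5 to 232, 279 and 267 (log2 change 1.95 ± 0.268, adjusted p = 2.24e-05). Of 23 scavenger and efferocytosis receptors and ligands, 5 rose and 8 fell, and Gas6, the bridge between dying cells and the receptor kinase Mertk, fell from 10817, 11529 and 11255 to 4270.2, 4017 and 3715 (log2 change -1.49 ± 0.125, adjusted p = 7.6e-08). Of 18 targets of hypoxia-inducible factor outside glycolysis, 2 rose and 4 fell. The rises were 1 without untreated replicate 2 or 3 or without IL-4 replicate 1 or 2, and the falls were 2 without untreated replicate 1 or 3 or without IL-4 replicate 1 or 2. Ndrg1, a hypoxia-induced stress gene, fell from 2969, 2888 and 3366 to 1430.1, 1113 and 1436 (log2 change -1.22 ± 0.175, adjusted p = 3.51e-05).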
